A study of Mus musculus with 9 samples.

Results

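The comparison is between erythroblasts of Th3/Th3 mouse embryos, which carry no intact adult beta-globin allele, and those of Th3/+ embryos from the same kind of cross, which carry 1. It takes the 3 Th3/Th3 and the 3 Th3/+ arrays of the 9 in the series, chosen by their genotype labels, and asks what loss of the second allele adds across genes. The other 3 arrays are wild type and are given as the level without any Th3 allele. Every sample, in all 3 genotypes, came from fetal livers at stage E14.5 (embryonic day) out of crosses between Th3/+ parents. Per the labels, the strain background is 129SV backcrossed onto C57BL/6 for 9 generations, and the sort gated on CD71 and Ter119 together with high forward scatter, a measure of cell size. An RNA input of 35 ng was amplified, biotin-labelled and hybridized to whole-transcript arrays. The labels call the samples biological replicates but do not tell single embryos from pools, and name no litter or hybridization day, so p-values measure the spread between these samples. Values were kept for 12898 genes, and expression is given as log2 signal, on which a difference of 1 is a doubling.

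Haemoglobin is built from alpha-like and beta-like chains, and in the mouse fetal liver the adult beta-globin genes supply most of the beta-like chains of definitive erythroblasts. When they are missing, alpha chains are left in excess of their partners. Free alpha chains are unstable, carry heme that can generate reactive oxygen, and are known to be met in thalassemia by chaperones, the ubiquitin-proteasome system and autophagy, while maturation of the erythroblasts fails. Th3 is a deletion allele of the adult beta-globin genes and a standard mouse model of beta-thalassemia. Being a deletion in the germ line, it acts in every cell of the embryo, and the liver around the sorted cells carries it too.

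The Th3/+ and Th3/Th3 arrays were alike in scale, with the 40th percentile of each of the 9 arrays between 4.52 and 4.62 and the highest value outside the control probe sets between 14.03 and 14.2. On the second principal component (16.7% of the variance) Th3/+ replicate 1 and Th3/Th3 replicate 1 stood apart from the other arrays, at 20.5 and 25.5. The wild type arrays lay at 7.7, 5.2 and -12.0 in order of replicate. Replicates 2 and 3 lay at -10.1 and -13.0 in Th3/+ and at -8.9 and -14.9 in Th3/Th3. The sexes were not balanced, since Xist, the transcript of the inactive X chromosome, was high in Th3/+ replicate 2 and in Th3/Th3 replicates 1 and 2. Of 8 erythroblast markers measured, 0 were near background in both genotypes, and their summed signal was 14.58 to 14.66 in Th3/+ and 13.71 to 14.06 in Th3/Th3. Within these markers Tfrc, Slc4a1, Alas2, Rhag and Ank1 fell, and 2 fell without Th3/+ replicate 2. Tfrc encodes CD71, by which the cells were sorted, so its level is no finding of the comparison. Gata1, the main erythroid transcription factor, did not pass the test (9.80 ± 0.08 and 9.38 ± 0.18, SD, n = 3 in each genotype, limma with Benjamini-Hochberg adjustment, adjusted p = 0.0906), nor did Epor, the erythropoietin receptor (adjusted p = 0.639). In a bulk sample, fewer cells of a type and less RNA per cell cannot be told apart.

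The targeted genes were examined first. A pair of probe sets is annotated to Hbb-bt, Hbb-bs, Hbb-b2 and Hbb-b1 alike, that is, to the adult beta-globin genes of either haplotype. In Th3/+ they gave 13.77 ± 0.03 and 13.70 ± 0.03, and their Th3/Th3 levels were 9.47 ± 0.86 and 9.38 ± 0.84 (SD, n = 3). On the first of them the Th3/Th3 arrays held 9.83, 10.09 and 8.49, which is far below every Th3/+ array and above the range in which most probe sets of the array lie. The difference was -4.31 and -4.32 (limma, adjusted p = 0.00027 and 0.000258). Since the Th3/+ signal sat at the top of the scale, these differences are lower bounds, at least 19.8-fold for the first. What the remaining Th3/Th3 signal on these probe sets comes from was not tested.

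The other beta-like genes of the same cluster did not move together. Hbb-bh1, an embryonic beta-like globin, held 11.63, 11.57 and 11.91 in Th3/+ against 10.45, 10.93 and 9.99 in Th3/Th3. It fell by 1.25 (2.38-fold, SE 0.22, adjusted p = 0.0101), with no overlap between the arrays, and did not pass without both arrays numbered 1 (adjusted p = 0.061). Hbb-y, the main embryonic beta-like globin, held 11.50, 11.85 and 12.50 in Th3/+ against 11.64, 12.16 and 12.14 in Th3/Th3, so the genotypes overlapped throughout. The difference of Hbb-y was 0.03 with a 95% interval from -0.56 to 0.61 (adjusted p = 0.969), and its sign turned when arrays were left out. Hbb-bh2, a further gene of the cluster, lay at 4.76 ± 0.70 and 4.28 ± 0.05, the latter near background (adjusted p = 0.372).

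At the alpha locus the main genes and the minor ones differed. The probe sets shared by Hba-a1 and Hba-a2, the adult alpha-globin genes, had means of 13.40 and 13.42 in Th3/+ against 13.39 and 13.41 in Th3/Th3. These signals are high but outside the range counted as the top of the scale, and the differences were -0.01 and -0.01 (95% intervals -0.13 to 0.11 and -0.13 to 0.11). Hba-x, the embryonic alpha-like gene, was 9.33 ± 0.60 in Th3/+ and 9.31 ± 0.47 in Th3/Th3 (adjusted p = 0.989), again with a sign that turned with the arrays used. The theta-globin genes, which are transcribed from the alpha locus with no settled role in haemoglobin, both fell. Hbq1a held 9.08, 7.87 and 8.01 in Th3/+ against 5.97, 6.23 and 5.55 in Th3/Th3 and fell by 2.41 (5.30-fold, SE 0.30, adjusted p = 0.00245). Hbq1b fell by 1.05 (2.06-fold, SE 0.12, adjusted p = 0.00176). The pair are near-identical relatives, so signal could be shared between their probe sets.

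**Figure D1:**
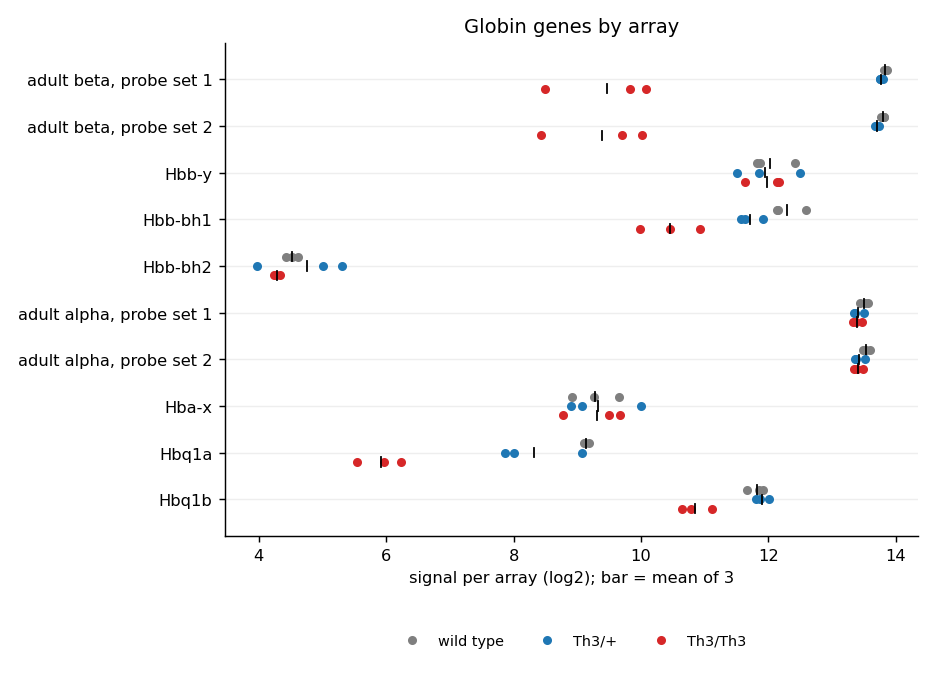
Log2 signal (x axis) of 10 globin probe sets (y axis) on each array: grey for wild type, blue for Th3/+, red for Th3/Th3, with a black bar at the mean of 3. Only the adult beta-globin probe sets, Hbb-bh1, Hbq1a and Hbq1b show Th3/Th3 points that lie wholly below the Th3/+ points and passed the test; the adult alpha-globin points overlap between 13.34 and 13.52.

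Across genes, changes went in both directions. Of 14978 probe sets with a gene annotation, 671 were higher (4.48%) and 530 lower (3.54%) in Th3/Th3 than in Th3/+ (limma, adjusted p under 0.05). Taking 1 probe set per gene, 580 of 12898 genes rose (4.5%) and 475 fell (3.68%), while the median difference over all genes was -0.0009. The median change was 0.78 on the log2 scale among genes that rose, and those that fell had a median size of 0.85. At least 2-fold changes were seen in 147 genes that rose and 159 that fell, and at least 4-fold changes in 3 and 8. On all 580 and all 475 of these genes the arrays of the genotypes did not overlap. Such separation was also seen in the upward direction for 1709 genes (13.3%) and in the downward direction for 1354 (10.5%) whether or not they passed the test. With 3 arrays a side the smallest two-sided p of an exact permutation test is 0.1, and the calls therefore rest on the variance that limma shares across probe sets.

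The number of calls depended on the arrays. Without Th3/+ replicate 2, 290 probe sets were higher and 265 lower. Without Th3/+ replicate 1 the counts were 380 and 430, without Th3/+ replicate 3 they were 407 and 322, and without Th3/Th3 replicate 2 they were 412 and 387. Of 158 named genes that passed, 104 passed under every alternative in which they were tested, and 47 did not pass without Th3/+ replicate 2.

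Th3/+ against wild type, the first step, gives the scale of the second. That comparison shares the Th3/+ arrays with the one described here, so only values are set side by side. It had 4 annotated probe sets past the test (limma), 3 of Hspa8 and 1 of Hspa1a, and 539 at an unadjusted p under 0.05.

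**Figure D2:**
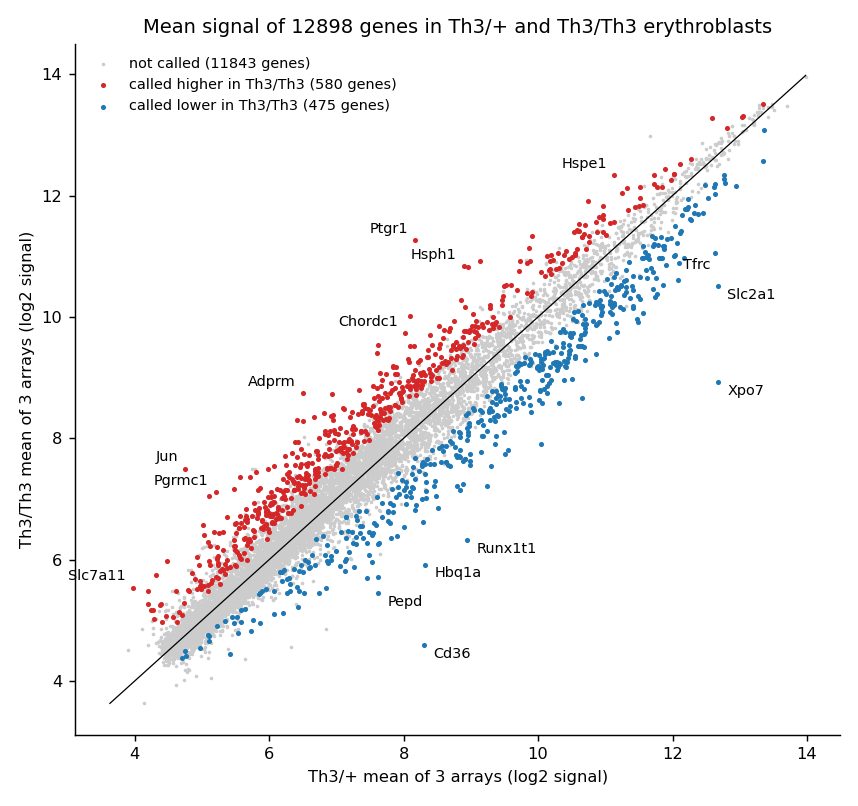
Mean log2 signal of 12898 genes in Th3/+ (x axis) against Th3/Th3 (y axis), each the mean of 3 arrays; red points are the 580 genes that rose, blue the 475 that fell, grey the others, and the line marks equal signal. Of the genes labelled by name, Xpo7, Cd36 and Runx1t1 lie farthest below the line, Ptgr1, Jun and Adprm farthest above it.

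Predicted genes, clone names and small RNAs were left out of the rankings of single genes. Among the other genes with a probe set of their own, Ptgr1, Jun and Adprm had the largest rises. Ptgr1, an oxidoreductase of reactive aldehydes and prostaglandins, held 8.12, 8.0 and 8.40 in Th3/+ against 10.69, 11.71 and 11.40 in Th3/Th3. It rose by 3.09 (8.52-fold, SE 0.28, adjusted p = 0.000594), from a wild type level of 7.91 ± 0.43. Jun, a subunit of the AP-1 transcription factor, held 4.48, 4.75 and 5.02 in Th3/+, close to background, and 7.77, 7.15 and 7.58 in Th3/Th3. The rise of Jun was 2.75 (6.72-fold, SE 0.19, adjusted p = 0.00023), against 0.12 from wild type to Th3/+. Adprm, a manganese-dependent phosphodiesterase of ADP-ribose, went from 6.56, 6.66 and 6.30 to 8.61, 8.92 and 8.71, a rise of 2.24 (4.73-fold, adjusted p = 0.000187). In each of these genes every Th3/Th3 array lay above every Th3/+ array, as the naming rule required of all the largest changes.

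The next in size were Dnajb9 (1.95), Hsph1 (1.94), Pgd (1.93), Cds2 (1.93), Pgrmc1 (1.91), Nupr1 (1.90), Srxn1 (1.86), Bag3 (1.8), Ero1a (1.8), Impact (1.79) and Nkiras1 (1.79), all as log2 differences. Cds2 makes the phospholipid precursor CDP-diacylglycerol, and its Th3/+ arrays held 7.13, 7.86 and 7.85 against 9.48, 9.43 and 9.70 in Th3/Th3 (adjusted p = 0.000936). Impact, a protein that restrains the amino acid sensor kinase GCN2, held 6.09, 6.47 and 6.94 against 7.96, 8.14 and 8.77 (adjusted p = 0.0109). The other genes of this group fall into the functions described next: Dnajb9, Hsph1 and Bag3 into protein folding, Pgd and Srxn1 into redox metabolism, Nupr1 into the integrated stress response, Ero1a into oxidative folding and the hypoxia response, and Pgrmc1, a membrane protein that binds heme, into heme handling. Nkiras1 is an inhibitor of NF-kappa-B signalling.

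**Figure D3:**
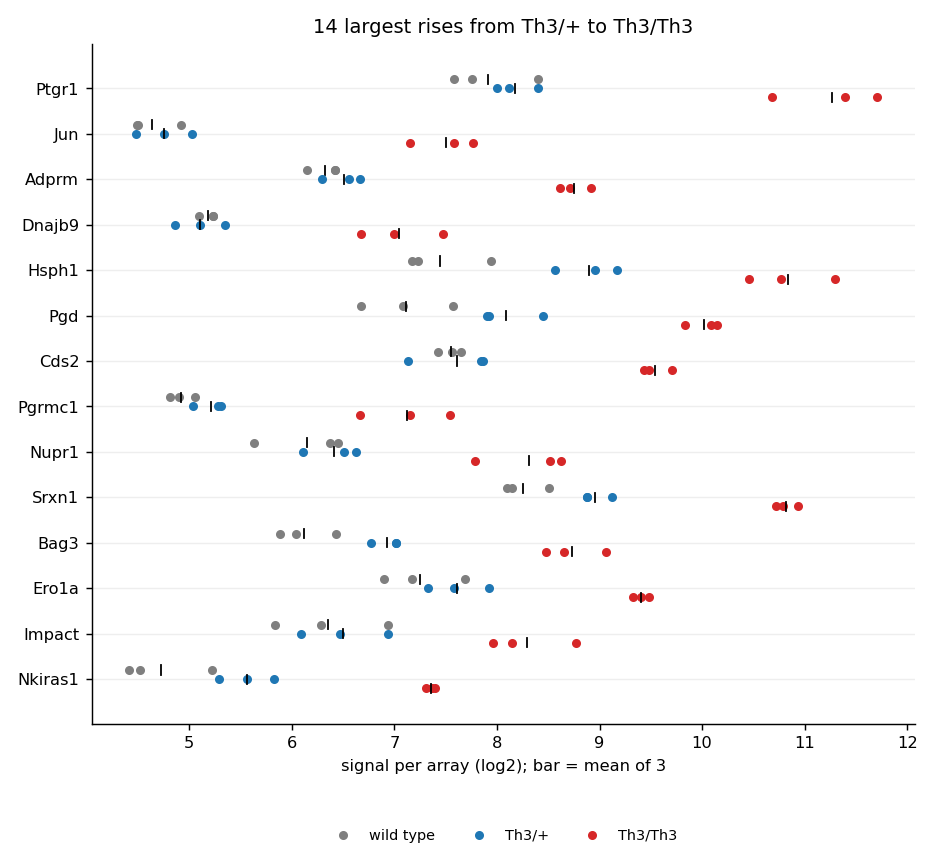
Log2 signal (x axis) on each array for the 14 genes with the largest rises (y axis, largest at the top), predicted genes, clone names and small RNAs left out. Grey is wild type, blue Th3/+ and red Th3/Th3, with a black bar at the mean of 3. The red points lie right of all blue points in every gene; Jun starts from 4.75 in Th3/+ and reaches 7.50 in Th3/Th3.

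Genes were then read in lists chosen with earlier results of these data known, so the shares called describe the lists and test nothing. Each share is to be read beside the 4.5% of all genes that rose and the 3.68% that fell. Some chaperones of the cytosol and the mitochondrion rose, while most of those measured did not pass the test. Of 14 HSP70 and HSP110 chaperones measured 3 rose (21.4%, against 4.5% of all genes) and 0 fell, with a median difference of 0.36. Hsph1, the HSP110 nucleotide exchange factor of HSP70, held 8.57, 8.95 and 9.17 in Th3/+ against 10.46, 10.77 and 11.29 in Th3/Th3. It rose 3.85-fold (adjusted p = 0.00389), after a difference of 1.45 between wild type and Th3/+ that did not pass the test (adjusted p = 0.382). Hspa8, the constitutive HSP70, rose by 0.69 (adjusted p = 0.00118) on top of a rise of 0.83 from wild type to Th3/+ (adjusted p = 0.00482). Hspa9, the mitochondrial HSP70, rose by 1.43. Hspa1a, the inducible HSP70, is outside the naming rule and is given because its values were seen to behave otherwise. It held 8.95, 9.33 and 8.64 in Th3/+ against 10.12, 9.57 and 9.72 in Th3/Th3, a difference of 0.83 that did not pass (adjusted p = 0.107), after a rise of 3.05 from wild type to Th3/+ (adjusted p = 0.00482). The difference between these steps of Hspa1a did not pass either (adjusted p = 0.146).

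HSP90 cochaperones held the highest share of rises among the folding lists, 7 of 18 (38.9%), with 0 lower and a median of 0.40. Chordc1, an HSP90 partner, held 7.95, 8.07 and 8.05 in Th3/+ against 9.56, 9.79 and 9.86 in Th3/Th3. The rise of Chordc1 was 1.71 (3.27-fold, SE 0.13, adjusted p = 0.000315). Cacybp rose by 1.26, Ahsa2, a relative of the HSP90 ATPase activator, by 1.09, and Sugt1, a cochaperone of HSP90, by 1.07. Of 16 chaperonin and prefoldin genes, which fold actin, tubulin and mitochondrial proteins, 5 rose (31.2%) and 0 fell, with a median of 0.56. Hspe1, the cochaperonin of the mitochondrial matrix, held 11.01, 11.21 and 11.20 in Th3/+ against 12.37, 12.33 and 12.29 in Th3/Th3 (2.29-fold, SE 0.08, adjusted p = 0.000187). Cct3, a subunit of the cytosolic chaperonin, rose by 1.10. The chaperonin count was 3 without Th3/+ replicate 1 and without either of Th3/Th3 replicates 2 and 3, and 2 without Th3/+ replicate 2.

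The DNAJ cochaperones, the partners of HSP70, had 3 of 41 higher (7.32%) and 1 lower, and 8 higher without Th3/Th3 replicate 1. Dnajb9, of the endoplasmic reticulum, held 5.10, 5.35 and 4.86 in Th3/+ against 6.68, 7.48 and 6.99 in Th3/Th3 (3.85-fold, adjusted p = 0.000798), and Dnaja1, of the cytosol, rose by 0.79 and, on its other probe set, by 1.25. Of 15 BAG proteins and small heat shock proteins 1 rose (6.67%), Bag3, the cochaperone of chaperone-assisted autophagy. It held 6.77, 7.01 and 7.01 against 9.06, 8.48 and 8.65 (3.48-fold, adjusted p = 0.000993), while the list's median was -0.03.

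Heat shock factor binds inverted repeats of a short unit, and the promoters of the folding genes that rose were searched for 3 such units in a row, GAANNTTCNNGAA on either strand. The search covered RefSeq promoter windows of GRCm38.p6, from 250 bases before to 50 after the start, found for 10200 of the 12898 genes. The motif contains the shorter pairs GAANNTTC and TTCNNGAA. It was in the window of 0.529% of these genes, 1.82% of those that rose, 0.519% of those that fell and 3 of 16 folding genes that rose (18.8%). Shown are the matches of these 3 genes, with the repeats in capitals, since they are the folding genes in which a complete element was found. A match describes the letters and is no evidence of binding. No share was taken for folding genes that did not rise.
Hspe1, chr1:55088028-55088147, plus strand, the 120 bases before the start: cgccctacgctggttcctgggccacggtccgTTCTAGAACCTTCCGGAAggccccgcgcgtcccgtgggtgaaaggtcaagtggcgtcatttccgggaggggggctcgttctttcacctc
Hsph1, chr5:149636280-149636309, minus strand, from 6 bases after the start: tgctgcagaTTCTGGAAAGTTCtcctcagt
Chordc1, chr9:18292259-18292288, plus strand, across the start: accgGAACGTTCGGGAAAATTCCTGAAgca

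Among genes of protein degradation, part of the proteasome and endoplasmic reticulum lists rose. Of 48 proteasome genes 10 rose (20.8%) and 1 fell, with a median of 0.37. Psmb3, a subunit of the catalytic core, held 10.81, 10.57 and 10.85 in Th3/+ against 11.87, 11.96 and 11.87 in Th3/Th3 (2.24-fold, SE 0.09, adjusted p = 0.000359). Pomp, the assembly factor of the core, rose by 0.80, and the core subunit genes Psmb1 and Psmb6 by 0.66 and 0.55. The member that fell was Psme3 (-0.69), an activator of the nuclear proteasome, which is outside the naming rule. In the unfolded protein response of the endoplasmic reticulum 6 of 30 genes rose (20.0%), 0 fell and the median was 0.23. Besides Dnajb9 they included Pdia4, a disulfide isomerase (0.70), Selenos, which helps to extract misfolded proteins (0.93), and Herpud1, of the same degradation route (0.75). This count was 3 without Th3/+ replicate 1 or 2, and Herpud1 did not pass without these (adjusted p = 0.0569 and 0.0764).

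Autophagy genes had 4 of 31 higher (12.9%) and 1 lower with a median of 0.07. Sqstm1, the receptor p62 that links ubiquitinated cargo to autophagosomes, held 9.70, 9.63 and 9.80 in Th3/+ against 10.72, 10.81 and 10.76 in Th3/Th3 (2.07-fold, adjusted p = 0.00281). Bnip3 and Bnip3l, related mitophagy receptors, moved in opposite directions: Bnip3 rose by 1.37 (adjusted p = 0.0252) and Bnip3l, which clears mitochondria from reticulocytes, fell by 0.56 (adjusted p = 0.00681). Bnip3 rose by 1.91 on its other probe set. Without Th3/+ replicate 1, 2 or 3 or Th3/Th3 replicate 2, 1 autophagy gene rose, and without Th3/Th3 replicate 3 the count was 2. Bnip3 was then at an adjusted p of 0.0673, 0.0826, 0.0793, 0.0892 and 0.0815. Of 34 lysosomal genes 5 rose (14.7%) and 1 fell (2.94%), and 3 rose without Th3/+ replicate 2. Ctsd, the aspartic protease cathepsin D, rose by 0.74, Gla, alpha-galactosidase, by 0.99, and Ctsb, the cysteine protease cathepsin B, fell by 1.05.

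Of 35 antioxidant genes and regulators under the transcription factor NRF2, 12 rose (34.3%) and 0 fell, with a median of 0.18. After Ptgr1, the member with the largest rise was Srxn1, sulfiredoxin, which restores overoxidized peroxiredoxins. It held 8.87, 8.88 and 9.12 in Th3/+ against 10.79, 10.72 and 10.94 in Th3/Th3 (3.63-fold, SE 0.14, adjusted p = 0.000287). Prdx1, a peroxiredoxin, held 8.98, 9.18 and 9.25 against 11.13, 10.89 and 10.74 (3.45-fold, adjusted p = 0.000482). Slc7a11, the cystine transporter that feeds glutathione synthesis, was below background in Th3/+ and rose at least 1.95-fold, with 5.45, 5.54 and 5.62 in Th3/Th3 (adjusted p = 0.000187). Genes of this list outside the naming rule were Gclc, of glutathione synthesis (9.84 ± 0.08 to 10.89 ± 0.24, adjusted p = 0.00245), and Nqo1, a quinone reductase (7.41 ± 0.16 to 8.57 ± 0.26, adjusted p = 0.00494).

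In the overlapping list of peroxide and glutathione defence 5 of 27 rose (18.5%) and 2 fell, with a median of 0.05. Txnrd1, the cytosolic thioredoxin reductase, rose by 1.32 and Gsr, glutathione reductase, by 1.01. Those that fell, both outside the naming rule, were Txnrd2, the mitochondrial thioredoxin reductase (-0.67), and Prdx2, the abundant peroxiredoxin of red cells (-0.28). Thus Prdx1 and Prdx2, and likewise Txnrd1 and Txnrd2, changed in opposite directions.

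NRF2 binds the antioxidant response element, whose core, TGACNNNGC, was searched on either strand. This core was in the promoter window of 16.4% of genes, 20.9% of those that rose and 20.0% of those that fell. Of the 51 erythroid genes that fell and had a window, described below, 13 held the core (25.5%). It was found in 3 of the 9 NRF2 and peroxide genes that rose and had a window (33.3%), with no share taken for those that did not rise. The matches of these 3 genes are shown in capitals because they are the genes that rose in which the core was found.
Srxn1, chr2:152105541-152105570, plus strand, from 17 bases after the start: ggcagtgggcaGCTAGGTCAgagtgagaca
Prdx1, chr4:116685446-116685565, plus strand, positions -153 to -34 from the start: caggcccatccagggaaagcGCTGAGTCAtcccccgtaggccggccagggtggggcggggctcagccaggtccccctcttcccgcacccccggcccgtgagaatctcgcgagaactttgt
Txnrd1, chr10:82859086-82859205, plus strand, the 120 bases before the start: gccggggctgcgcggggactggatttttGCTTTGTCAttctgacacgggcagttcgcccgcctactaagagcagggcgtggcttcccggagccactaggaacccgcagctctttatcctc

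The integrated stress response, in which kinases of eIF2 raise the factor ATF4, was split. Of 34 genes 4 rose (11.8%) and 5 fell (14.7%), with a median of 0.15. Ddit3, the transcription factor CHOP, held 9.86, 9.96 and 9.81 in Th3/+ against 11.03, 10.84 and 10.90 in Th3/Th3 (2.07-fold, adjusted p = 0.00105). Nupr1, a stress-induced chromatin protein, held 6.50, 6.11 and 6.63 against 8.52, 8.62 and 7.79 (3.72-fold, adjusted p = 0.00459). Lower were Slc1a5, the glutamine transporter, by 1.22 (adjusted p = 0.000594), and Eif2ak1, the heme-regulated eIF2 kinase of erythroid cells, by 0.64 (adjusted p = 0.0179). Without Th3/+ replicate 2 the count that fell was 3, and without Th3/Th3 replicate 1 the count that rose was 7. Eif2ak1 did not pass without Th3/+ replicate 1 or 2 (adjusted p = 0.0575 and 0.0783). Of 33 aminoacyl-tRNA synthetases, which ATF4 can induce, 1 rose (3.03%): Sars, by 0.47. Its adjusted p was 0.0795 without Th3/+ replicate 2 and 0.0555 without Th3/Th3 replicate 3.

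Metabolic genes were read in lists of glycolysis, of the pentose phosphate pathway and of targets of the hypoxia-inducible factor HIF. Of 17 glycolytic enzymes 6 rose (35.3%) and 1 fell, with a median of 0.23. Pkm and Pklr, the pyruvate kinase genes, changed in opposite directions. Pkm, the form of proliferating and non-erythroid cells, held 7.63, 7.50 and 7.71 in Th3/+ against 8.96, 8.49 and 8.64 in Th3/Th3 (2.12-fold, adjusted p = 0.00301). Pklr, which holds the red cell form, held 8.50, 8.68 and 8.71 against 7.89, 7.33 and 7.59 (2.03-fold lower, adjusted p = 0.00569). Tpi1, triose phosphate isomerase, rose by 0.82 and Pfkp, a phosphofructokinase, by 0.97. Aldoa, an aldolase outside the naming rule, rose by 1.41 (9.91 ± 0.38 to 11.33 ± 0.11, adjusted p = 0.0057). Pgd, the NADPH-producing dehydrogenase of the pentose phosphate pathway, was the 1 of 15 genes in its list to rise (6.67%). It went from 7.92, 7.90 and 8.45 to 10.09, 9.83 and 10.14 (3.81-fold, adjusted p = 0.00237).

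Of 27 HIF factors and targets 8 rose (29.6%) and 1 fell, with a median of 0.34. Ero1a, which oxidizes disulfide isomerases, held 7.58, 7.92 and 7.32 in Th3/+ against 9.48, 9.33 and 9.41 in Th3/Th3 (3.47-fold, adjusted p = 0.00206). Cited2, which competes with HIF for its coactivator, rose by 1.00 and Higd1a, a mitochondrial protein, by 0.71. Higd1a rose by more, 1.68, on its other probe set (adjusted p = 0.00092). The member that fell was Slc2a1, the glucose transporter GLUT1, at 12.64, 12.69 and 12.71 in Th3/+ against 10.94, 10.05 and 10.54 in Th3/Th3 (4.49-fold, adjusted p = 0.000651). The count that rose was 5 without Th3/+ replicate 2 or Th3/Th3 replicate 3 and 4 without Th3/Th3 replicate 2. The HIF core ACGTG, searched on either strand, was in the promoter window of 28.0% of genes, 35.6% of those that rose and 30.9% of those that fell.

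Most mitochondrial genes did not pass the test. Of 73 mitochondrial ribosomal protein genes 10 rose (13.7%) and 0 fell, with a median of 0.29. In 64 of the 73 the difference was above 0, against 6416 of the 12898 genes tested. Mrpl9, of the large subunit, rose by 0.72 (adjusted p = 0.0102). Of 82 respiratory chain genes 5 rose (6.10%, near the 4.5% of all genes) and 0 fell, with a median of 0.12, among them Cox7a2l, a factor of supercomplex assembly (0.58), and Uqcc3, an assembly factor of complex III (1.02). Among 60 genes of mitochondrial import and carriers 7 rose (11.7%) and 4 fell (6.67%). Those that rose included Tomm20 (1.21, adjusted p = 0.00248) and Tomm5 (1.29, adjusted p = 0.00579), of the outer membrane import complex. Those that fell included the carriers Slc25a37, for iron (-1.58), and Slc25a51, for NAD (-0.85). The ribosomal count was 2 without Th3/+ replicate 1 or 2 or Th3/Th3 replicate 2. It was 3 without Th3/+ replicate 3 and 5 without Th3/Th3 replicate 3. The respiratory count was 2 without Th3/+ replicate 2 or 3 or Th3/Th3 replicate 1, and it was 3 without Th3/+ replicate 1 or Th3/Th3 replicate 2. The import count that rose was 4 without any of the Th3/+ arrays or without Th3/Th3 replicate 3. Of 21 cholesterol synthesis genes 1 rose (4.76%), Insig1, the sterol sensor partner (0.91). It did not pass without Th3/+ replicate 2 or 3 (adjusted p = 0.0789 and 0.0558).

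Among genes with a probe set of their own, again without predicted genes, clone names and small RNAs, the largest falls were those of Xpo7, Cd36 and Runx1t1. Xpo7, a nuclear transport receptor that is abundant in late erythroblasts and takes part in nuclear condensation, held 12.70, 12.68 and 12.65 in Th3/+ against 9.04, 8.77 and 8.95 in Th3/Th3. It fell by 3.76 (13.5-fold, SE 0.09, adjusted p = 1.33e-07, the smallest of the named genes). Wild type and Th3/+ differed by -0.03 on the same probe set, and the spread within each genotype was at most 0.14 (SD). Cd36, a scavenger receptor for fatty acids on erythroid precursors, held 8.65, 8.44 and 7.83 in Th3/+ against 4.17, 4.87 and 4.73 in Th3/Th3, close to the level of background. The fall of Cd36 was 3.72 (13.2-fold, SE 0.31, adjusted p = 0.000404). Runx1t1, the corepressor ETO, went from 8.95, 8.98 and 8.91 to 6.27, 6.49 and 6.19, a fall of 2.63 (6.19-fold, SE 0.13, adjusted p = 4.07e-05).

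Cd36 is also made by macrophages, which form erythroblastic islands in the fetal liver. Of 19 macrophage markers measured, 0 rose and 4 fell (21.1%), their median was -0.41, and 0 had a difference above 0, against 6416 of 12898 genes. Their summed signal was 9.82 to 10.48 in Th3/+ and 9.48 to 9.63 in Th3/Th3. Tyrobp, an adaptor of myeloid receptors, fell by 1.67 (adjusted p = 0.00943) from 8.80, 8.36 and 7.70 to 6.18, 6.91 and 6.75. C1qb, of complement, fell by 0.97 and Fcer1g by 0.40. The count was 1 without Th3/+ replicate 2, where C1qb and Fcer1g had adjusted p = 0.051 and 0.0707. The part of macrophages in the fall of Cd36, or of any other gene, was not tested.

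Of the other genes with large falls, Slc2a1 is described with the HIF targets and Hbq1a with the globins. Pepd, a dipeptidase for bonds to proline, fell by 2.18 and Cd82, a tetraspanin, by 2.00. Slc16a1, the lactate transporter MCT1, went from 9.35, 9.46 and 9.11 to 7.76, 7.03 and 7.85, a fall of 1.76 (adjusted p = 0.00312). Pik3r1, the regulatory subunit of phosphoinositide 3-kinase, fell by 1.75, Dapk2, a death-associated kinase, by 1.76, and Ibtk, an inhibitor of the tyrosine kinase BTK, by 1.72. Hsd3b6, a steroid dehydrogenase with near-identical paralogs whose probe sets may share its signal, fell by 2.14, with 9.93, 10.07 and 10.12 in Th3/+ against 7.52, 7.45 and 8.74 in Th3/Th3. Sowaha, an ankyrin repeat protein, fell by 1.91 and Capn5, a calpain protease, by 1.76. The Th3/+ values of the latter pair agreed to within 0.01, with 7.46 on each array for Capn5. Exactly equal values on 2 or more of the 6 arrays occurred in 32.7% of annotated probe sets and on all 3 Th3/+ arrays in 1.82%, so a very small spread may come from how the values were made.

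**Figure D4:**
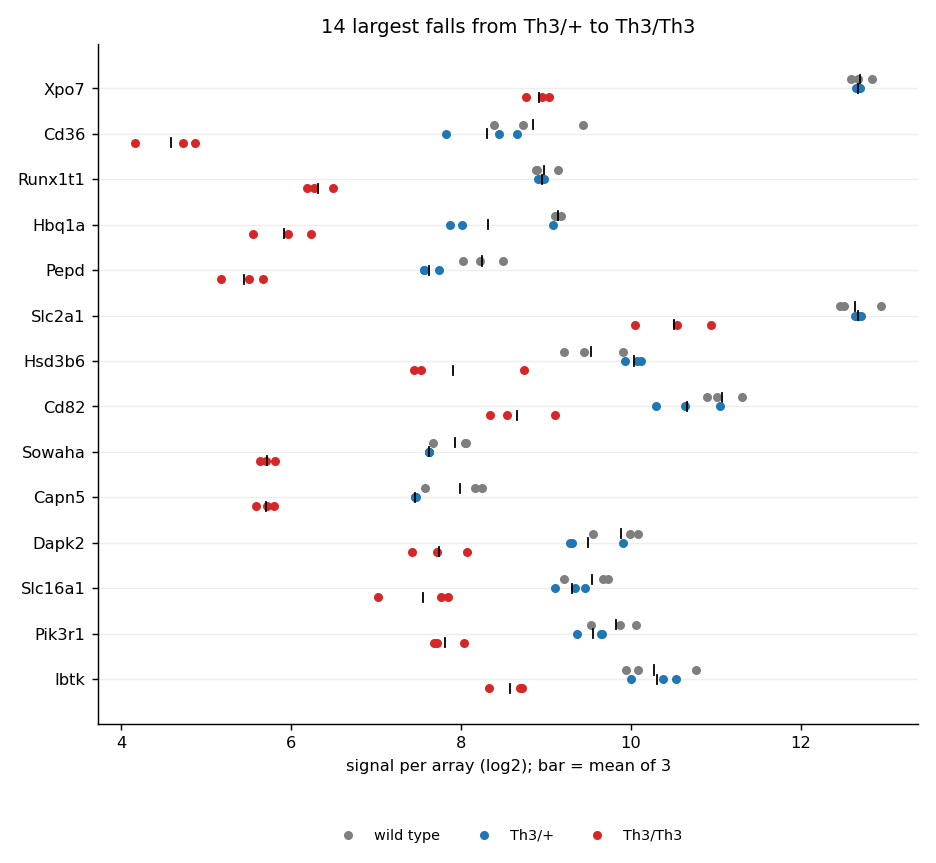
Log2 signal (x axis) on each array for the 14 genes with the largest falls (y axis, largest at the top), predicted genes, clone names and small RNAs left out. Grey is wild type, blue Th3/+ and red Th3/Th3, with a black bar at the mean of 3. For Xpo7, Runx1t1 and Slc2a1 the wild type and Th3/+ points lie together and the Th3/Th3 points apart, at means of 8.92, 6.32 and 10.51.

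In the lists of the membrane skeleton, surface proteins, late erythroid enzymes and heme synthesis 0 genes rose. Of 17 genes of the membrane skeleton 10 fell (58.8%, against 3.68% of all genes), with a median of -0.67. Epb42, protein 4.2, held 11.49, 11.55 and 11.40 in Th3/+ against 10.11, 10.38 and 10.54 in Th3/Th3 (2.20-fold lower, SE 0.12, adjusted p = 0.00127). Sptb, erythroid beta-spectrin, fell by 1.21, Add1, adducin, by 1.01 and Tmod1, which caps actin, by 0.90. The other probe set of Tmod1 differed by -0.15, with overlapping arrays (adjusted p = 0.591). Among 29 blood group and surface proteins 16 fell (55.2%), with a median of -0.67. Besides Cd36 they included Cd47, the signal against phagocytosis (-1.48), Itga4, an integrin of island adhesion (-1.24), and Kel, the Kell antigen (-0.84). Cd47 fell by less, -0.46, on its other probe set.

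Late erythroid enzymes and related proteins fell in 21 of 36 cases (58.3%), with a median of -0.69. In 31 of the 36 the genotypes did not overlap, with Th3/Th3 lower, against 10.5% of all genes. Since members were chosen with earlier results of these data known, these shares are no test. Bpgm, which makes the 2,3-bisphosphoglycerate that lowers oxygen affinity, held 12.16, 12.17 and 12.20 in Th3/+ against 10.97, 10.92 and 11.04 in Th3/Th3. The fall was 2.30-fold (log2 difference -1.2, SE 0.10, adjusted p = 0.000368). Dhrs11, a dehydrogenase, fell by 1.41 and Tspo2, an erythroid translocator protein of cholesterol and heme precursors, by 1.27. Of 15 heme synthesis genes 9 fell, with a median of -0.59. Slc25a37, mitoferrin, which brings iron to the mitochondrion, held 12.61, 12.69 and 12.60 against 11.23, 10.77 and 11.18 (2.98-fold lower, adjusted p = 0.000187). Abcb10, its stabilizing partner, fell by 1.06, Fech, ferrochelatase, by 0.79, and Alas2, which starts the pathway in erythroid cells, by 0.61 (adjusted p = 0.00661).

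Iron and heme handling outside synthesis went in both directions. Of 22 genes of iron uptake, storage and export 3 rose and 3 fell (13.6% each), with Tfrc, the sort marker, among those that fell. Ncoa4, the receptor that sends ferritin to autophagy, fell by 0.82 (adjusted p = 0.00465), Ftl1, ferritin light chain, rose by 0.30 (adjusted p = 0.0266), and Slc40a1, the iron exporter ferroportin, rose by 0.76 (adjusted p = 0.0144). Ftl1 and Slc40a1 did not pass without Th3/+ replicate 2 (adjusted p = 0.111 and 0.0573), where 0 genes of the list rose, and 1 rose without Th3/+ replicate 1 or Th3/Th3 replicate 1. Without each of these, and without Th3/Th3 replicate 3, Ftl1 had adjusted p = 0.0792, 0.0693 and 0.0663. Of 13 genes of heme breakdown, export and sensing 3 rose (23.1%) and 1 fell (7.69%). Hmox1, heme oxygenase, held 7.36, 7.68 and 6.97 in Th3/+ against 9.00, 8.76 and 8.63 in Th3/Th3 (2.75-fold, adjusted p = 0.00461). Pgrmc1 held 5.04, 5.31 and 5.28 against 6.67, 7.54 and 7.15 (3.76-fold, adjusted p = 0.00086).

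GATA factors act on the promoters of many of these genes, so the erythroid genes that fell were searched for AGATAA on either strand. It was in the promoter window of 8.26% of genes, 10.6% of those that fell, 6.07% of those that rose, and 15 of 51 erythroid genes that fell and had a window (29.4%). No share was taken for listed erythroid genes that did not fall, so the 29.4% cannot be tied to the fall. Many GATA sites lie in enhancers outside such windows, which were not examined. Of the 15 genes with a match, the 3 with the largest falls are shown, the match in capitals.
Isg20, chr7:78914115-78914234, plus strand, the 120 bases before the start: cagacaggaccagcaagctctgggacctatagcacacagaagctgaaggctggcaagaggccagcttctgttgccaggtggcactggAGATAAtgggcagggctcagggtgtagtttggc
Bcl2l1, chr2:152828490-152828609, minus strand, the 120 bases before the start: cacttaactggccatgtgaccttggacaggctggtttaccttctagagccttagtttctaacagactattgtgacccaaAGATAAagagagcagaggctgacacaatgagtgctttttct
Epb42, chr2:121037004-121037123, minus strand, positions -246 to -127 from the start: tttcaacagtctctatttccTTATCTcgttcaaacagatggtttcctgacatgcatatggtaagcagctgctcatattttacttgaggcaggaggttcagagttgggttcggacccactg

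Ubiquitin conjugation in late erythroblasts, the machinery that remodels the proteome before enucleation, had no gene that rose. Of 25 genes 14 fell (56.0%) and 0 rose, with a median of -0.49. Ube2o, the conjugating enzyme that clears ribosomes from reticulocytes, held 11.16, 11.20 and 11.12 in Th3/+ against 9.93, 9.75 and 10.0 in Th3/Th3 (2.40-fold lower, SE 0.12, adjusted p = 0.000594). The ligase genes Rnf123 and Rnf10 fell by 1.21 and 0.66, and Ube2c, a mitotic conjugating enzyme, by 0.78. The count that fell was 9 without Th3/+ replicate 1 or 3 and 8 without Th3/+ replicate 2.

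Erythroid transcription factors fell in 11 of 35 cases (31.4%) and rose in 0, with a median of -0.33. After Runx1t1 the smallest adjusted p-values were of Klf3, a repressor downstream of KLF1 (-1.28, adjusted p = 0.00273), E2f2, which drives cell cycle exit of erythroblasts (-1.23, adjusted p = 0.00148), and Nfe2, an activator of globin genes (-0.71, adjusted p = 0.00543). Klf1 itself, outside the naming rule, was 9.52 ± 0.03 and 9.29 ± 0.10, and did not pass (adjusted p = 0.272). Of 24 regulators of globin switching 3 fell (12.5%) and 1 rose (4.17%), and 1 fell without Th3/+ replicate 2. The 1 that rose was Igf2bp1, an RNA-binding protein (0.45, adjusted p = 0.0346). It had adjusted p = 0.101 and 0.129 without Th3/+ replicates 1 and 2, and 0.0958 and 0.0648 without Th3/Th3 replicates 2 and 3. Sox6, which silences embryonic globin, fell by 0.98 (adjusted p = 0.00755), and Bcl11a, the repressor of embryonic and fetal globin genes, by 0.92 (adjusted p = 0.0251). The adjusted p of Bcl11a was 0.0932 and 0.0667 without Th3/+ replicates 2 and 3, and 0.0609 and 0.0756 without Th3/Th3 replicates 1 and 3. The third, Ikzf1, fell by 0.73 and did not pass without Th3/+ replicate 2 (adjusted p = 0.0809).

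Erythropoietin signalling genes were lower in 4 (13.8%) and higher in 1 (3.45%) of 29, with a median of -0.02. The 4 include Tfrc, the sort marker. Pim1, a kinase induced by STAT5, held 8.79, 9.01 and 8.86 in Th3/+ against 7.86, 7.36 and 7.66 in Th3/Th3 (2.40-fold lower, adjusted p = 0.00262). Bcl2l1, the survival factor BCL-XL of late erythroblasts, held 12.15, 12.10 and 12.04 against 11.21, 10.52 and 10.96 (2.30-fold lower, adjusted p = 0.00266). In the BCL2 family of 15 genes Bcl2l1 was the 1 to fall and Bad, which promotes death, the 1 to rise (6.67% each). Bad rose by 0.78 (adjusted p = 0.0148, and 0.062 without Th3/+ replicate 2).

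Cell cycle genes were read by phase. Of 44 genes of mitosis and cytokinesis 11 fell and 0 rose, with a median of -0.36 and 5 that fell without Th3/+ replicate 2. Mki67, the Ki-67 antigen of cycling cells, held 11.81, 11.90 and 11.82 in Th3/+ against 10.78, 10.98 and 11.14 in Th3/Th3 (1.83-fold lower, SE 0.09, adjusted p = 0.000987). Nusap1 and Prc1, which organize the spindle, fell by 0.74 and 0.63. Of 47 DNA replication genes 2 fell (4.26%, near the 3.68% of all genes), Rrm2 of ribonucleotide reductase by 0.54 and Tk1, thymidine kinase, by 0.52. Neither passed without Th3/+ replicate 2 or 3 or Th3/Th3 replicate 2 or 3, the adjusted p of Rrm2 being 0.148, 0.127, 0.128 and 0.0935 and that of Tk1 0.101, 0.0614, 0.0618 and 0.0715. Tk1 also did not pass without Th3/+ replicate 1 (adjusted p = 0.0727), and its other probe set differed by -0.09.

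Among 31 genes of the G1 phase 4 fell (12.9%) and 2 rose (6.45%). E2f4, needed for expansion of erythroid precursors, fell by 0.66 (adjusted p = 0.0085), and Cdkn2d, an inhibitor of cyclin-dependent kinases, by 0.83 (adjusted p = 0.021). The count that fell was 2 without Th3/+ replicate 2 or 3 or Th3/Th3 replicate 2. Those that rose were the atypical cyclins Ccng1 (1.43) and Ccng2 (0.61), of which 0 passed without Th3/+ replicate 1 or 2 or Th3/Th3 replicate 2 or 3, with p up to 0.103 and 0.077 after adjustment by limma. Of 19 p53 targets 3 rose (15.8%) and 0 fell, with a median of 0.34. Trp53inp1, a p53 cofactor in stress, held 6.61, 6.88 and 6.57 against 7.72, 7.74 and 7.89 (2.13-fold, adjusted p = 0.00145), and it was the 1 target that passed without Th3/+ replicate 1 or 2 or Th3/Th3 replicate 2. Of 28 AP-1 and immediate-early genes 2 rose (7.14%), Jun and Zfp36, while the list's median was -0.03. Zfp36, an mRNA decay factor, held 5.69, 5.93 and 5.79 against 7.40, 7.27 and 7.65 (3.11-fold, adjusted p = 0.000359). Of 26 interferon response genes 1 rose and 1 fell (3.85% each). The latter was Isg20, an exonuclease also on the list of late erythroid genes (-1.48, adjusted p = 0.00674).

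Most translation genes did not pass the test. Among ribosomal proteins of the cytosol 4 of 59 were higher (6.78%) and 0 lower, with a median of 0.12. In 54 of the 59 the difference was above 0, against 6416 of the 12898 genes tested. Rps18 rose by 0.27 (adjusted p = 0.0146). Its other kept probe sets rose by 0.22 to 0.25, and not all of them passed (adjusted p = 0.0563 and 0.066 in those that did not). The count of ribosomal proteins that rose was 1 without Th3/+ replicate 1 or Th3/Th3 replicate 2. It was 0 without Th3/+ replicate 2 and 2 without Th3/Th3 replicate 1. Rps18, on its brightest probe set, had adjusted p = 0.068 without Th3/+ replicate 2. Among 46 ribosome biogenesis genes 3 rose (6.52%) and 1 fell (2.17%). Those that rose included Polr1c, a subunit of RNA polymerases I and III (0.93, adjusted p = 0.00729). Of 47 initiation factors 2 rose (4.26%) and 3 fell (6.38%). Eif5, which activates GTP hydrolysis at the start codon, held 11.92, 12.16 and 12.06 in Th3/+ against 10.82, 11.21 and 11.03 in Th3/Th3 (2.04-fold lower, SE 0.12, adjusted p = 0.00186). Without Th3/+ replicate 2, 1 factor fell and 0 rose, and 0 rose without Th3/+ replicate 1. Of 50 nuclear transport genes 4 fell (8.0%), Xpo7, Ranbp10 (-1.18), Nup210 (-1.12) and Ranbp2 (-0.76), and 0 rose, with a median of -0.11. Ranbp2, a pore component, did not pass without any of the Th3/+ arrays (adjusted p = 0.0832, 0.127 and 0.123), nor without Th3/Th3 replicates 1 and 3 in turn (0.0733 and 0.0746).

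Summed signals of the hepatoblast, granulocyte, lymphoid and endothelial lists overlapped between the genotypes. Those of the megakaryocyte and early progenitor lists, like the macrophage list above, did not overlap and were lower in Th3/Th3. The megakaryocyte sum was 10.48 to 10.70 in Th3/+ and 10.15 to 10.31 in Th3/Th3. The early progenitor sum was 12.86 to 13.02 in Th3/+ and 12.24 to 12.46 in Th3/Th3. The causes were not tested. Hepatoblast markers, the parenchyma of the fetal liver, had 0 of 19 past the test, with a summed signal of 10.97 to 11.68 in Th3/+ and 10.86 to 11.41 in Th3/Th3. Of 15 megakaryocyte markers 1 fell (6.67%), Tubb1, by 0.71 (adjusted p = 0.0177). Its adjusted p was 0.0757 without Th3/+ replicate 2, 0.0665 without Th3/+ replicate 3 and 0.054 without Th3/Th3 replicate 2. Granulocyte, lymphoid and endothelial lists had 0 of 9, 0 of 6 and 0 of 13 past the test. Of 18 genes on the early progenitor list 3 fell (16.7%) and 0 rose: Itga4, Ikzf1 and Cpox. Each is also on an erythroid list: Itga4 among surface proteins, Ikzf1 among erythroid transcription factors and Cpox among heme synthesis genes. Their falls therefore do not speak for progenitor cells.

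**Figure D5:**
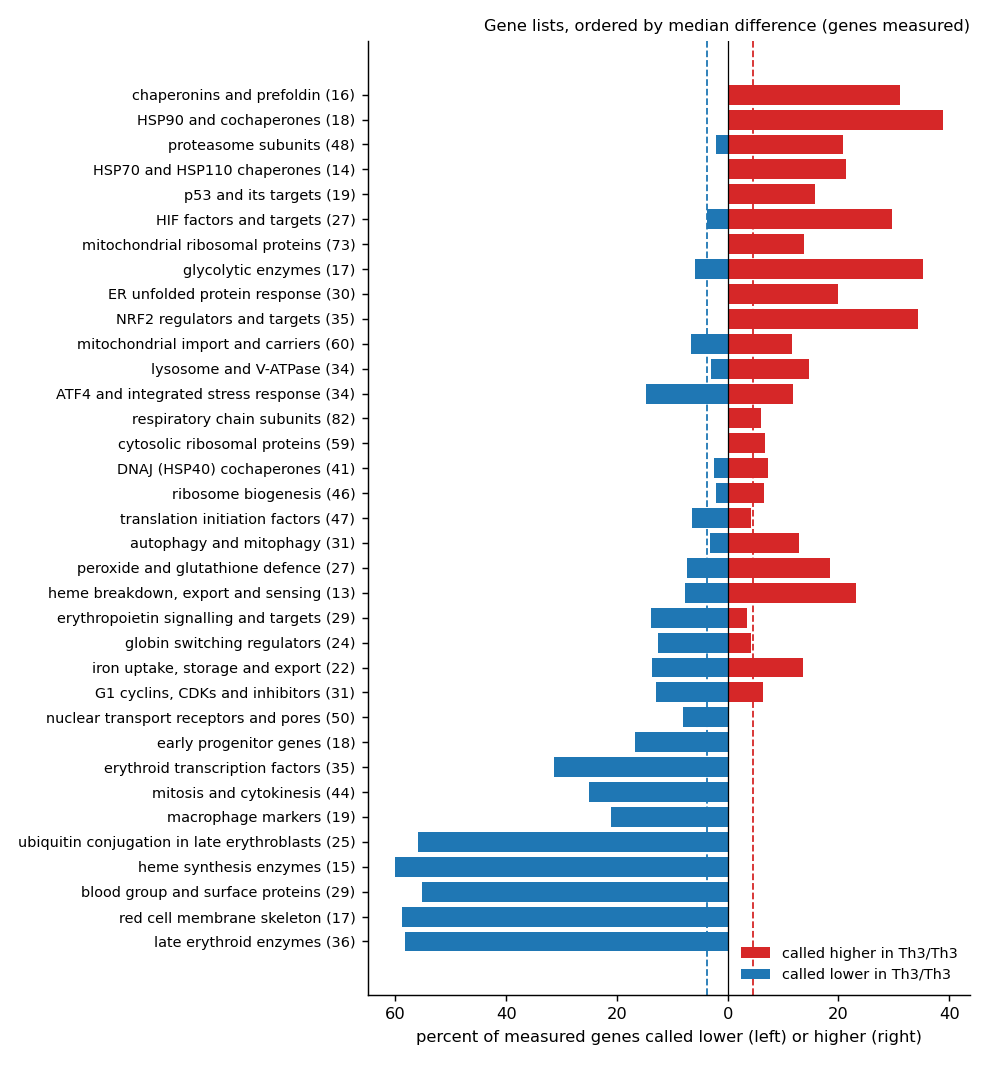
Percent of the measured genes of a list that were lower (blue, to the left) or higher (red, to the right) in Th3/Th3 than in Th3/+, for 35 lists with at least 3 called genes (the erythroblast markers of the sort check are left out), ordered by median difference; dashed lines mark the 3.68% and 4.5% of all genes. The chaperonin, HSP90, proteasome and HSP70 lists stand at the top with bars to the right, and the lists of erythroid maturation, such as the membrane skeleton with 58.8% lower, the lower left. The lists were chosen with earlier results of these data known, so their shares are descriptive.

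Whether the second allele moved a gene by another amount than the first was tested directly as the difference between the steps. It passed for 14 annotated probe sets (0.0935%). Those moved by the second step were Xpo7 (difference between the steps -3.73, adjusted p = 2.28e-05), Runx1t1 (-2.61, adjusted p = 0.00623), Tcp11l2 (-1.84), Sowaha (-1.61) and Ube2o (-1.53) downwards and Jun (2.63), Adprm (2.06) and Slc7a11 (1.52) upwards. The remaining probe sets were those of adult beta globin, Slc25a37 (-1.46) and, outside the naming rule, Nxpe2 (-1.33), Dennd4a (-1.07) and Prxl2b (-1.25). Prxl2b was higher by 0.48 in Th3/+ than in wild type, which did not pass the test, and fell by 0.77 from Th3/+ to Th3/Th3. Its value thus rests on both steps. The beta-globin value rests on a first step measured at the top of the scale. Nxpe2 held 11.78, 11.78 and 11.67 in Th3/+ against 10.26, 10.31 and 10.43 in Th3/Th3, with a wild type mean of 11.82.

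Of these, Xpo7 passed under all 14 alternatives (adjusted p up to 0.00228) and Runx1t1 under 10 of 14 (up to 0.163 without both arrays numbered 1). The adjusted p of the other probe sets lay between 0.0473 and 0.0486, and without Th3/+ replicate 2 it reached 0.207 to 0.275. In fits that each left out 1 array, between 1 and 33 probe sets passed, 1 without any of the Th3/+ arrays and 33 without Th3/Th3 replicate 1. For all other genes a difference between the steps was not detected with these arrays, which does not show that the steps were equal.

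Genes next to the beta-globin cluster on chromosome 7 were looked at because sequence from the 129SV strain may be linked to the Th3 allele. Of the 50 nearest measured genes, 25 on each side, 1 rose and 3 fell, with a median of -0.02. Among all genes 4.5% rose and 3.68% fell, so the 8.0% called here is near the background. Smpd1, acid sphingomyelinase, rose by 0.83, and the olfactory receptor genes Olfr543 and Olfr632 and the deubiquitinase gene Usp17ld fell by 1.13, 0.88 and 0.41. None of these 4 calls held in all fits that left out 1 array. Without Th3/+ replicate 2 the adjusted p was 0.103, 0.0714, 0.0654 and 0.167, and without Th3/+ replicate 3 it was 0.107, 0.0715, 0.0843 and 0.104. Capn5 lies on the same chromosome with 74 measured genes between it and the cluster. Linked sequence and the loss of beta globin cannot be told apart for these genes.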

How the data were processed

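Of 9 arrays, 1 per sample and 3 per genotype, the authors deposited 1 log2 value per probe set, used as deposited. MAS5 is named in the submitters' processing notes, and the summary behind the log2 scale is not given in the sources used here. Of 35556 probe sets, 6617 with identifiers below the first annotated one were taken as controls and left out. Probe sets above the array's 40th percentile on at least 3 of 9 arrays were kept (17742). Symbols came from the platform annotation.

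The deposited log2 values were fitted with limma 3.58.1 in R 4.3.3 (lmFit, eBayes with trend), with 1 mean per genotype over all 9 arrays. Contrasts were two-sided, with Benjamini-Hochberg adjustment over all kept probe sets, and were called at an adjusted p under 0.05. The fits were tested on simulated data. A gene is its brightest kept probe set with 1 symbol. A mean below the 40th percentile is near background, where a fold is a lower bound.

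Named were all globins, the 14 largest rises and falls without overlap, up to 4 called members per list (or the 2 with the smallest p), up to 5 step differences each way and called neighbours of the beta-globin cluster. Predicted genes, clone names and small RNAs were left out of the largest rises, falls and step differences. Members and lists were chosen with earlier results of these data known. Same-numbered Th3/+ and Th3/Th3 arrays deviated together with correlations of 0.28, 0.07 and 0.17. Pairs with wild type arrays gave -0.13 to 0.36. The labels name no pairs, so none were taken in the reported fit. Whether same-numbered arrays share a batch was not tested. Precision is limited by the number of arrays.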

Additional observations from a re-analysis of the deposited data

How the results depend on the processing

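Named genes that passed kept their direction under each of the 15 alternatives in which they were tested (Slc7a11, Lyz2 and Uqcc1 were tested in 14, since the stricter filter left them out), and the share of rises among annotated calls stayed between 46.9% and 58.6% (55.9% in the reported fit). In place of 671 higher and 530 lower probe sets, the fit of the 6 Th3/+ and Th3/Th3 arrays alone gave 397 and 353. With Xist signal as a covariate 470 were higher and 390 lower, and 143 named genes passed in place of 158. In fits each leaving out 1 array, the counts lay between 290 and 773 and between 265 and 546. The 14 step differences became 2 without a filter, 36 with the stricter filter at the 60th percentile, 2 without the mean-variance trend, 196 with array weights, 3 with Xist as a covariate, 1 without both arrays numbered 1, and 1 to 33 leaving out 1 array. The labels do not say what arrays with the same replicate number share. With the number as a replicate block, 783 were higher, 621 lower and 3 step differences passed, and 156 named genes passed in place of 158. The causes were not tested. Uncalled Hbb-y (0.03) ranged from -0.20 to 0.30 in fits leaving out 1 array, being below 0 without Th3/+ replicate 1 or 2 or Th3/Th3 replicate 2 or 3, and was -0.030 without both numbered 1. Uncalled Hba-x (-0.01) ranged from -0.23 to 0.33, being above 0 without Th3/+ replicate 3 or Th3/Th3 replicate 1, and was 0.0038 with quantile normalization, 0.054 with array weights, 0.076 with Xist and 0.037 without both numbered 1. Genes near background or at the top of the scale have only bounds.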
